A study of Mus musculus with 9 samples.

Results

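The untreated CD8+ T cell samples of this series were 5 of its 9 RNA sequencing libraries. They were taken as the columns labelled NT (not treated), NT 1 to NT 5, of the count table that the authors had corrected for batch. CD8+ T cells are lymphocytes that recognise peptides on MHC class I molecules and kill the cells that present them. Per the labels, mouse CD8+ cells were activated for 72 h without an inhibitor of the histone demethylase LSD1, in complete RPMI medium with interleukin 2 (IL-2) at 100 U/mL. The sources used here do not give the mouse strain, age and sex, the way the cells were isolated or the activating stimulus. The samples are numbered, with nothing said of separate animals or cultures, so the spread below is that between these libraries and may be partly technical. The other libraries of the series, from cells activated with the inhibitor, were not compared.

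When a naive CD8+ T cell is activated through its antigen receptor and costimulatory receptors, it enlarges, turns to rapid glycolysis and protein synthesis, and starts to divide. It gains the high-affinity IL-2 receptor and, over the following days, the granzymes, perforin and cytokines of an effector cell. Receptors that restrain the response, such as PD-1 and CTLA-4, are also induced by activation, whereas genes of the resting state are turned down.

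The 2 deposited count tables did not carry the same names for NT 1 and NT 2. When columns were paired by counting genes at zero in 1 table and not in the other, the columns NT 1 and NT 2 of the batch-corrected table held the libraries that the raw table names LSD1i 1 and LSD1i 2, with 0 such genes each, against 1387 or more for any other partner. NT 3, NT 4 and NT 5 were named alike. Which names are right is not stated, and NT 1 and NT 2 may thus come from cells given the inhibitor, so every mean, SD and CV over all 5 libraries may mix treated and untreated cells. Values for NT 3 to NT 5 alone are given beside some results only, and for many genes the value in each library is printed. Corrected totals ranged from 15003752 to 27215488 counts, and of the 24391 genes listed 14039 to 17020 had a count in a library. NT 1 and NT 5 stood furthest apart. Over the 8644 genes with a mean of at least 10 CPM (the usual scaling of counts per library, here with TMM-adjusted totals), the SD of the log2 difference between them was 0.50, and 466 genes differed at least 2-fold. The closest pair was NT 2 and NT 3, at 0.19 and 8 genes. In the raw counts of the same libraries the closest pair was instead NT 3 and NT 4 (0.16), and NT 1 and NT 2 differed from NT 3 to NT 5 by 0.48 to 0.63. NT 1 and NT 2 differed from each other by 0.46 there, and NT 5 from NT 3 and NT 4 by 0.34 and 0.39. Which library is called highest or lowest below is read from the corrected table. In the raw counts the highest library was the same for 91 and the lowest for 83 of the 149 genes named here at 10 CPM or more (61.1% and 55.7%), against 61.1% and 56.2% of all such genes.

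A mean of at least 1 CPM was reached by 11185 of the listed genes (45.9%) and at least 10 CPM by 35.4%. The 20 genes of highest mean CPM took 14.3% of the scaled counts and the top 1000 took 56.01%. Besides 3 RNAs of the ribosome and RNA processing machinery, these 20 were genes of protein synthesis, the cytoskeleton, glycolysis, protein folding and the cytotoxic granule. CPM follows both transcript number and transcript length, so a ranking by CPM is not one of transcript number, and levels of different genes are compared as CPM per kilobase of transcript. Of the 8644 genes of at least 10 CPM, 8598 had a length, and Rn45s, the gene of highest CPM, did not. On that scale Gzmb, which encodes the cytotoxic protease granzyme B, ranked 4 among those with a length, at 4916 CPM per kb. It was preceded by Rpph1 (38708) and Rmrp (22779), the RNA subunits of the RNA-processing enzymes RNase P and RNase MRP, and by the translation elongation factor Eef1a1 (9545). It was followed by the cytoskeletal actin Actb (4593) and the ribosomal stalk protein Rplp1 (4511). The spread between libraries does not separate Gzmb from Actb or Rplp1 in this order, as Gzmb had a coefficient of variation (CV, the SD over the mean) of 15.7%, against 5.44% for Actb and 16.03% for Rplp1.

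**Figure D1:**
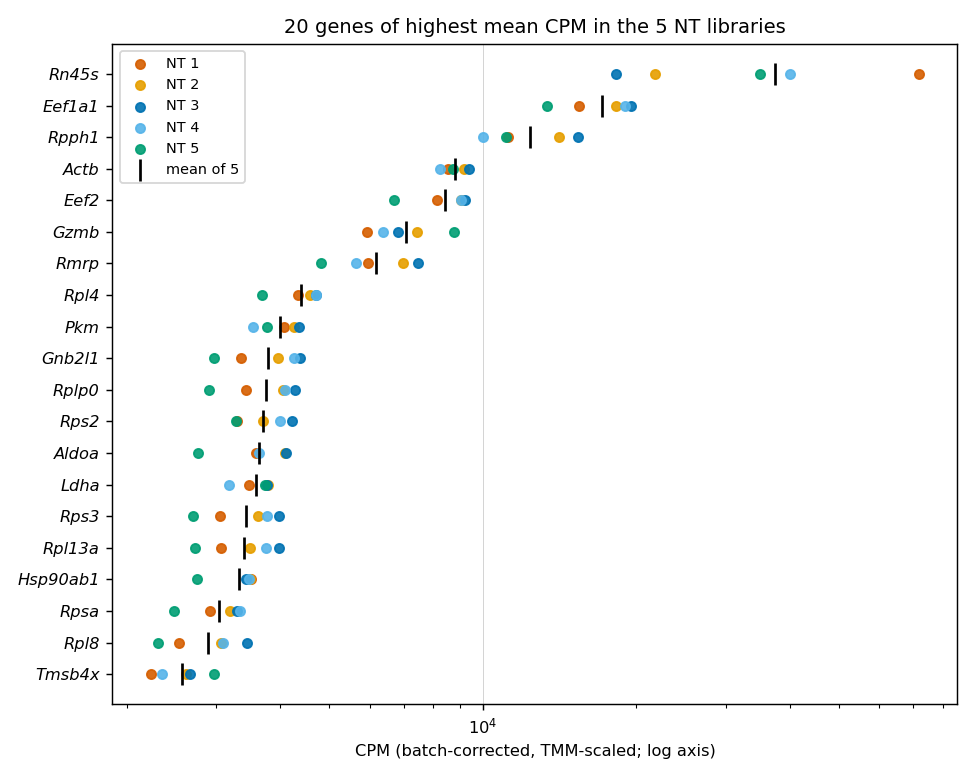
CPM (log axis) of the 20 genes of highest mean CPM, with 1 coloured point for each NT library and a black bar at the mean of the 5. Rn45s has the widest spread of the 20, from 18213 to 71801 CPM, and Actb the narrowest, from 8228 to 9403.

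Rn45s, the precursor of ribosomal RNA, had 71801, 21762, 18213, 40162 and 35013 CPM in NT 1 to NT 5. NT 1 was highest and NT 3 lowest, and the CV of 56.9% was the largest among the 20 leading genes. It was 36.9% in NT 3 to NT 5. Its share of the raw reads was 13.3% in the library of NT 1 and 1.96% to 2.87% in the others, so the order of the libraries rests in part on the correction. Rpph1 had 12348 ± 2272 CPM (SD, n = 5). Its corrected shares of 0.989% to 1.52% lie between the raw shares of NT 1 and NT 2 (0.297% and 0.476%) and those of NT 3 to NT 5 (2.86% to 3.09%). Rmrp, at 6173 ± 1058 CPM, likewise had raw shares of 0.190% and 0.272% in NT 1 and NT 2 and 1.25% to 1.38% in NT 3 to NT 5. For both RNAs the corrected level of each library lies between the raw levels of the 2 sets of libraries. Over the raw counts of all 5 their means were 19529.8 and 8819 CPM.

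The libraries carried the defining transcripts of CD8+ T cells. Cd8a, the alpha chain of the CD8 coreceptor, had 348, 389, 384, 340.2 and 406 CPM in NT 1 to NT 5. Cd8b1, its beta chain, had 268, 291, 278, 233 and 272 CPM in NT 1 to NT 5. Both chains were even over the 5 libraries, with CVs of 7.57% and 7.98%, and NT 3 to NT 5 alone gave 381 ± 34.1 and 264 ± 24.4 CPM (SD, n = 3). All 24 of the 24 T cell receptor and lineage genes examined reached 1 CPM, against 45.9% of all listed genes. Of the 23 at 10 CPM or more, 16 had a CV under 10%, a level met by 33.9% of all genes. Their median CV was 8.86%, against 12.5% over all genes, and in raw counts of the same libraries 15.5%, against 18.7%. Members of high CPM were Ptprc, the phosphatase CD45, at 1649 ± 93.4 CPM (SD, n = 5), the kinase Lck (461 ± 23.5 CPM) of receptor signalling, and the surface glycoprotein Thy1 (447 ± 27.4 CPM).

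Among the CD3 chains that carry the signal of the T cell receptor, Cd3g had 328 ± 25.8 CPM and Cd3d 265 ± 26.2 CPM, with CVs of 7.86% and 9.88%. In raw counts Cd3d had 193, 197, 337, 327 and 298 CPM in NT 1 to NT 5, a CV of 25.99%. Cd3e, the epsilon chain of the same complex, had 107, 37.1, 73.99, 31.8 and 39.7 CPM in NT 1 to NT 5. NT 1 was highest and NT 4 lowest, and the CV of 55.5% was 46.3% in NT 3 to NT 5. In raw counts the library of NT 1 had 154 CPM and the others 36.5 to 45.2. Cd28, the costimulatory receptor, was measured at 451, 246, 337, 317 and 187 CPM in NT 1 to NT 5, the other member of the list with a CV of at least 30% (32.3%). Such a CV was seen for 5.52% of all genes.

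Several defining markers of other cell types were near the limit of detection, while other members of the same lists were well detected. In the deepest library 3 counts correspond to 0.110 CPM and in the shallowest to 0.200 CPM. Cd4, the coreceptor of helper T cells, was at 0.0439 to 0.213 CPM, and Foxp3, which defines regulatory T cells, at 0 to 0.133. The B cell genes Ms4a1, Cd79a and Pax5 had means of 0.0263, 0.0549 and 0.0133 CPM. Among myeloid genes, the receptor Csf1r had a mean of 0.0106 CPM, the integrin Itgam 0.322 and the endotoxin coreceptor Cd14 0.0260, and Lyz2, the macrophage lysozyme, was listed at 0. Ncr1, a receptor of NK cells, the mast cell and basophil genes Mcpt8 and Fcer1a, and the beta globin gene Hbb-b1 were also listed at 0 in all 5 libraries. A listed 0 does not by itself show absence, because Hmgcs1, an enzyme of cholesterol synthesis that dividing cells use, was listed at 0 as well. In bulk RNA a low level cannot separate few cells of a type from little RNA per cell.

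Of the 117 genes in 7 lists for other cell types, 30 reached 1 CPM, against 45.9% of all listed genes. The summed CPM over each whole list ranged from 89.97 to 108 for CD4 and regulatory T cells, 180.4 to 222 for B cells and MHC class II, and 27.2 to 53.8 for myeloid and dendritic cells. For mast cells and basophils it ranged from 10.7 to 37.6, for NK and innate-like cells from 189.8 to 290.4, for erythroid cells and platelets from 8.02 to 13.5 and for stromal and endothelial cells from 41.3 to 57.4. Members at 1 CPM were 5 of 12 for CD4 and regulatory T cells, 10 of 22 for B cells and MHC class II, 2 of 25 for myeloid and dendritic cells and 6 of 18 for NK and innate-like cells. In the mast cell, erythroid and stromal lists they were 2 of 12, 3 of 13 and 2 of 15. The shares for B cells and MHC class II and for CD4 and regulatory T cells lie near that of all listed genes. Klrk1, the activating receptor NKG2D that activated CD8+ T cells share with NK cells, was at 195 ± 42.8 CPM. Zbtb7b, the factor ThPOK of the helper T cell lineage, was at 38.2 ± 7.54 CPM. H2-Ab1 and Cd74, of the MHC class II pathway, were at 68.6 ± 13.04 CPM and 35.1 ± 8.08 CPM with H2-Aa, the partner chain of H2-Ab1, at 0.392 CPM. Kit, the stem cell factor receptor, was measured at 36.1, 12.6, 24.1, 10.8 and 9.30 CPM in NT 1 to NT 5, highest in NT 1, and Hdc, which makes histamine, at a mean of 1.67 CPM. Pecam1, an adhesion molecule of endothelial and blood cells, was at 41.9 ± 6.30 CPM and Cebpb, a factor of myeloid and other activated cells, at 26.5 ± 10.1 CPM. The part of other cells in these levels was not tested.

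Xist, the RNA that silences an X chromosome in female cells, was present in every library, at 1138, 349, 445, 704 and 373 CPM in NT 1 to NT 5. The 7 genes of the Y chromosome examined, Ddx3y, Eif2s3y, Kdm5d, Uty, Zfy1, Zfy2 and Usp9y, were listed at 0 in all 5. The level of Xist was highest in NT 1, with a CV of 55.1% over the 5 and 34.3% in NT 3 to NT 5.

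**Figure D2:**
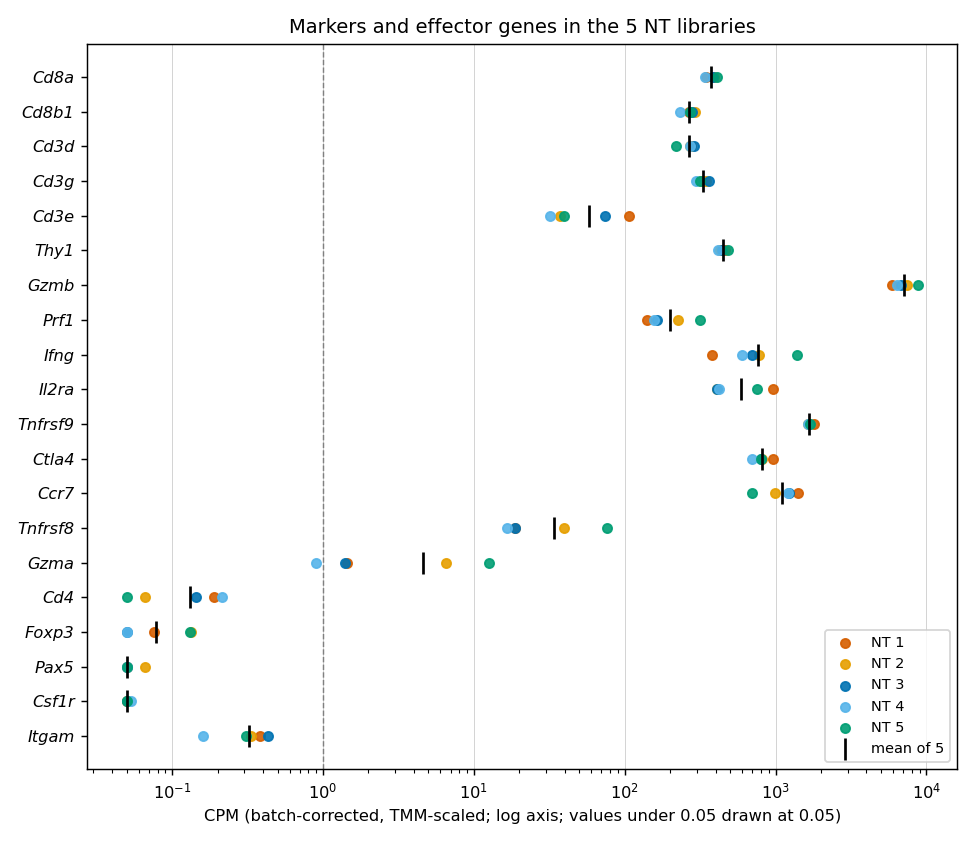
CPM (log axis) of lineage, effector, activation and other cell type markers, with 1 point for each NT library, a black bar at the mean of the 5 and a dashed line at 1 CPM. Values under 0.05 CPM are drawn at 0.05. Cd8a, Cd8b1, Cd3d, Cd3g and Thy1 lie close together over the 5 libraries, Tnfrsf8, Ifng and Cd3e are spread, and Cd4, Foxp3, Pax5, Csf1r and Itgam lie left of the line.

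Cytotoxic granule genes were present at very different levels. Gzmb had 5926, 7423, 6806, 6360.3 and 8781 CPM in NT 1 to NT 5. NT 5 was highest and NT 1 lowest, 1.48-fold apart, and the mean was 7059 ± 1111 CPM (SD, n = 5), or 7393 ± 1302 in NT 3 to NT 5 (n = 3). The other granzyme genes had few counts. Gzmc was at 7.36 ± 2.85 CPM, Gzmf at 1.29 CPM and Gzmm, Gzmk, Gzmd, Gzme and Gzmg under 1 CPM, although near-identical granzyme genes can share reads. Gzma, which encodes granzyme A, had 1.45, 6.57, 1.39, 0.903 and 12.7 CPM in NT 1 to NT 5, highest in NT 5 and NT 2. Its mean of 4.60 CPM was 2.54 without NT 5 and was 9.74 in raw counts. There the libraries had 1.13, 1.49, 1.47, 0.683 and 43.9 CPM, so NT 2 was near NT 1 and NT 3 and only NT 5 was high.

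Prf1, the pore-forming perforin through which granzymes enter the target, had 139.5, 224, 164, 155 and 313 CPM in NT 1 to NT 5. NT 5 was again highest and NT 1 lowest, and the CV was 35.8%. In raw counts the values were 189.7, 216, 133, 125 and 336 CPM, with NT 5 still highest and NT 4 lowest. Serpinb6b and Serpinb9, which protect the killer cell from its own granzymes, were at 1296 ± 263 CPM and 478 ± 37.2 CPM. The granule proteoglycan Srgn was at 428 ± 48.3 CPM and the granule protein Nkg7 at 364 ± 37.05 CPM. Lamp1, a lysosome membrane protein that appears on the cell surface when granules are released, was at 147 ± 6.20 CPM, and Unc13d, a factor of granule release, at 144 ± 11.8 CPM. Ctsc, the protease that activates granzymes, was at 89.9 ± 11.8 CPM. The death ligands Fasl and Tnfsf10 were at 44.3 ± 11.7 CPM and 20.5 ± 7.87 CPM. Of the 16 list members at 10 CPM or more, 8 were highest in NT 5 and 10 lowest in NT 1, against 28.1% and 25.9% of all genes.

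Ifng, encoding interferon gamma, had 379, 782, 696, 601 and 1383 CPM in NT 1 to NT 5. NT 5 had the most and NT 1 the least, 3.65-fold apart, with a CV of 48.8%, and the mean was 768 ± 375 CPM (SD, n = 5), or 903 ± 431 in NT 3 to NT 5 (n = 3). In raw counts the same libraries had 583, 1109, 484, 413 and 1053 CPM, so NT 5 also led NT 3 and NT 4 before correction, whereas NT 2 had the most. Tnf, the other main effector cytokine, was at 63.9 ± 13.4 CPM, and the lymphotoxins Ltb and Lta at 172 ± 22.4 CPM and 58.7 ± 21.8 CPM. Il2 itself, made by T cells early after activation, was at 1.74 ± 0.988 CPM. Csf2, encoding GM-CSF, was at 11.7 ± 3.87 CPM. Lif, a cytokine of the IL-6 family, had 38.6, 86.4, 52.2, 54.1 and 122 CPM in NT 1 to NT 5, highest in NT 5 and lowest in NT 1, whereas in raw counts NT 3 was lowest.

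The chemokines detected were Xcl1 (111 ± 25.3 CPM), which draws cross-presenting dendritic cells, Ccl4 (86.9 ± 23.6 CPM) and Ccl3 (71.5 ± 18.6 CPM), which draw other immune cells, and Ccl5 (33.01 ± 5.54 CPM). The cytokines of helper T cells were low. Il4 was at 0.607 CPM, Il17a at 0.116 and Il21 at 0.572, whereas Il13 reached 5.35 ± 2.76 CPM. Over raw counts Il17a and Il21 were at 0.215 and 1.02 CPM, and without NT 5 at 0.0675 and 0.294. Il24, a cytokine of the IL-10 family, was uneven with 1.03, 5.11, 2.73, 6.06 and 20.8 CPM in NT 1 to NT 5. Il10, which restrains inflammation, was measured at 0.876, 0.663, 0.383, 0.319 and 5.35 CPM in NT 1 to NT 5. NT 5 was highest for both, and without it their means were 3.68 and 0.553 CPM, against 7.14 and 1.52 with it. Over raw counts the means were 11.5 and 3.09 CPM. Of 32 cytokine and chemokine genes 22 reached 1 CPM and 14 reached 10, against 45.9% and 35.4% of all listed genes. Of the 14, 8 were highest in NT 5, 9 lowest in NT 1 and 5 had a CV of at least 30%. Over all genes these shares were 28.1%, 25.9% and 5.52%. In raw counts within NT 3 to NT 5, 9 of the 14 were above both other libraries in NT 5, against 38.2% of all genes.

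All 3 chains of the IL-2 receptor were present, in medium that contained its ligand. Il2ra, the alpha chain CD25 that activation induces, had 959, 412, 412, 422 and 749 CPM in NT 1 to NT 5. NT 1 and NT 5 were high and the other libraries lay between 412 and 422 CPM, for a mean of 591 ± 252 CPM (SD, n = 5) and a CV of 42.6%. In raw counts Il2ra had 912, 330, 485, 489 and 723 CPM, so NT 2 lay below NT 3 and NT 4 there. Il2rb and Il2rg, the signalling chains, were more even at 674 ± 83.7 CPM and 179 ± 31.8 CPM. Their CVs in raw counts were 20.4% and 30.1%, against 39.0% for Il2ra. Il12rb2, the inducible chain of the IL-12 receptor, had 586, 216, 369, 389 and 135 CPM in NT 1 to NT 5. NT 1 was highest and NT 5 lowest, with a CV of 51.4%, and in raw counts, at 649, 168, 321, 319 and 257 CPM, NT 1 was highest and NT 2 lowest. Its partner Il12rb1 was at 152 ± 13.1 CPM. Il4ra, the receptor chain for IL-4, was at 357 ± 32.2 CPM, Il21r at 175 ± 9.86 CPM and Il7r, the receptor that keeps naive and memory cells alive, at 163 ± 23.9 CPM. Of 24 cytokine receptor genes 23 reached 1 CPM, against 45.9% of all listed genes, and Csf2rb, at 0.320 CPM, did not.

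Activation receptors of the TNF receptor superfamily differed in how even they were over the libraries. Tnfrsf9, the costimulator 4-1BB, was at 1678 ± 67.8 CPM, Tnfrsf18 (GITR) at 640.4 ± 41.6 CPM and Tnfrsf4 (OX40) at 524 ± 75.99 CPM. Their CVs ran from 4.04% for Tnfrsf9 to 14.5% for Tnfrsf4, against 12.5% for the median gene. Per kilobase these were 756, 539 and 509 CPM per kb. The transferrin receptor Tfrc, which feeds dividing cells with iron, was at 1199 ± 71.9 CPM, with a CV of 5.99%. Tnfrsf8, encoding CD30, was uneven, with 18.8, 39.4, 18.8, 16.7 and 76.8 CPM in NT 1 to NT 5. NT 5 was highest and NT 1, NT 3 and NT 4 lay together, and the CV of 75.1% was among the 10 largest of all genes, and 91.2% in NT 3 to NT 5. Icos, a CD28 family costimulator, was at 81.7 ± 4.07 CPM, Cd69, an early activation marker, at 144 ± 20.2 CPM, and the adhesion receptor Cd44 at 201 ± 39.7 CPM. All 25 genes of the list reached 1 CPM, against 45.9% of all listed genes, and 6 of the 23 at 10 CPM had a CV of at least 30%, against 5.52%.

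Of the inhibitory receptors Ctla4, which competes with CD28 for its ligands, had 961, 814, 807, 699 and 796 CPM in NT 1 to NT 5. Its CV was 11.5%. Cd5, a negative regulator of receptor signalling, was at 256 ± 34.2 CPM, Lag3 at 139.6 ± 36.6 CPM and Pdcd1, encoding PD-1, at 111 ± 19.1 CPM. Cd274, the PD-1 ligand PD-L1, was at 86.2 ± 22.03 CPM. Havcr2, encoding TIM-3, was at 6.60 ± 1.86 CPM and the ectoenzyme Entpd1, or CD39, at 5.93 ± 2.10 CPM. Klrg1, a marker of terminal effector cells, was at 0 to 0.265 CPM. Tigit had 57.997, 16.3, 28.95, 31.1 and 11.8 CPM in NT 1 to NT 5. NT 1 was highest. Nt5e, the ectoenzyme CD73, was at 27.7 ± 11.3 CPM. Of the 12 inhibitory receptor genes at 10 CPM or more, 9 were lowest in NT 5 and 0 highest there, against 43.0% and 28.1% of all genes. In raw counts within NT 3 to NT 5, 9 of 12 were below both other libraries in NT 5, against 49.1% of all genes.

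Genes of the naive and memory state were not silent in these activated cells. Ccr7, the lymph node homing receptor, had 1401, 998, 1227, 1205 and 694 CPM in NT 1 to NT 5. NT 1 was highest and NT 5 lowest, with a CV of 24.5%. The survival factor Bcl2 was at 414 ± 31.5 CPM and the chromatin organiser Satb1 at 530.5 ± 60.1 CPM. The factors Tcf7 and Lef1, which maintain resting and memory T cells, were at 62.1 ± 15.1 CPM and 65.5 ± 10.9 CPM. Klf2, which keeps the resting T cell program, was at 9.25 ± 2.81 CPM and its target S1pr1, the lymph node exit receptor, at 32.4 ± 2.86 CPM. Foxo1, a regulator of quiescence, had 97.7, 35.8, 57.6, 37.1 and 35.99 CPM in NT 1 to NT 5, highest in NT 1, with a CV of 50.6% and of 27.97% in NT 3 to NT 5. Cx3cr1, a receptor of late effector cells, was at 0.135 CPM. Of the 17 genes at 10 CPM or more, 11 were highest in NT 1 and 12 lowest in NT 5, against 32.8% and 43.0% of all genes.

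Of 25 homing receptor genes, 19 reached 1 CPM, against 45.9% of all listed genes. Selplg, the selectin ligand PSGL-1, was at 423 ± 41.6 CPM and Itgb2, the beta chain of LFA-1, at 289 ± 27.5 CPM. The chemokine receptor of inflamed tissue Cxcr3 was at 6.07 ± 1.79 CPM and Cxcr4 at 87.04 ± 26.3 CPM. Itgae, the CD103 integrin of tissue-resident cells, was at 0.931 CPM. The integrin alpha chains Itga4 and Itgal had CVs of 37.7% and 36.5%, whereas the beta chain Itgb1 varied by 3.51%.

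Transcription factors of the CD8 lineage and of effector cells had a median CV of 19.9% over 30 genes at 10 CPM or more, against 12.5% over all genes. Of these 9 had a CV of at least 30%, against 5.52% of all genes, and 1, Stat5a, was under 10%. Stat3 and Stat5b, which carry cytokine signals, were at 1009 ± 230.2 CPM and 318 ± 41.3 CPM, and Stat5a, activated by IL-2, at 265 ± 14.3 CPM. Hif1a, a driver of glycolytic genes, was at 833 ± 95.1 CPM, Nfkb1 at 688 ± 84.6 CPM, and Irf4, which scales with receptor signal strength, at 522 ± 96.9 CPM. Bhlhe40, a factor of cytokine-producing T cells, was at 747 ± 242 CPM and Myc, a driver of growth, at 208 ± 29.5 CPM.

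Factors that define effector CD8+ T cells were also detected. Tbx21, encoding T-bet, had 42.1, 60.96, 58.1, 41.4 and 65.3 CPM in NT 1 to NT 5. Eomes, its relative, was measured at 39.1, 39.8, 50.4, 40.1 and 41.96 CPM in NT 1 to NT 5. Its CV was 11.1%, and 23.1% in raw counts, where NT 1 and NT 2 were the high libraries. Runx3, required for the CD8 lineage, had 126, 47.2, 72.8, 76.04 and 29.97 CPM in NT 1 to NT 5. NT 1 was highest and NT 5 lowest, in raw counts too. Bach2, which restrains effector differentiation, had 158, 52.1, 96.5, 78.7 and 28.9 CPM in NT 1 to NT 5. The extremes were the same, though NT 2 was lowest in raw counts, and their CVs were 51.7% and 59.3% (43.1% and 51.5% in NT 3 to NT 5). Prdm1, encoding the terminal effector factor Blimp-1, was at 6.82 ± 3.02 CPM, and Tox, a factor of exhausted cells, at 7.57 ± 3.11 CPM. Among immediate early genes Junb was at 922 ± 69.6 CPM and Jund at 536 ± 82.1 CPM, while Fos was at 8.99 ± 0.985 CPM. Egr1, induced by receptor signalling, had 55.4, 23.5, 31.9, 39.001 and 14 CPM in NT 1 to NT 5, the highest value being that of NT 1.

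Glycolytic genes took 2.25% of the scaled counts. Pkm, the pyruvate kinase, was at 4000.3 ± 343 CPM, Aldoa, an aldolase, at 3635 ± 546 CPM, Ldha, which turns pyruvate to lactate, at 3588 ± 259.5 CPM and Gapdh at 2461 ± 428 CPM. Per kilobase these were 1539, 1993, 1893 and 1646 CPM per kb. Ldha was the most even of these, with 3482, 3781, 3767, 3178 and 3731 CPM in NT 1 to NT 5. The glucose transporters Slc2a3 and Slc2a1 were at 1146 ± 309 CPM and 246 ± 52.8 CPM, and Hk2, the inducible hexokinase, at 320.4 ± 29.3 CPM. The list summed to 20147 to 24277 CPM over the libraries.

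All 41 nuclear genes of oxidative phosphorylation examined were above 10 CPM, against 35.4% of all listed genes. Among them were the ATP synthase subunits Atp5b (2086 ± 142 CPM) and Atp5a1 (1240.0 ± 87.1 CPM). Of the 41 genes, 26 were highest in NT 5 and 29 lowest in NT 1, and 0 had a CV of at least 30%, against 28.1%, 25.9% and 5.52% of all genes. Over all 5 raw libraries 17 were highest in NT 5, and the share of all genes there was not computed. In raw counts 40 of 41 were lower in NT 1 than in NT 2, against 57.3% of all genes. Genes of the mitochondrial genome are not among the listed genes. Cholesterol synthesis genes had a median CV of 10.9%, against 12.5% over all genes, and in raw counts of the same libraries 21.6%, against 18.7%. Fdps, which makes farnesyl diphosphate in this pathway, was at 347 ± 40.5 CPM. Of the list's 22 genes at 10 CPM or more, 16 were highest in NT 5, against 28.1% of all genes. In raw counts the list summed to 3267, 3475, 2425, 2171 and 2732 CPM in NT 1 to NT 5, so NT 2 led there. Within NT 3 to NT 5, 19 of the 22 were highest in NT 5 in raw counts, against 38.2% of all genes. Of the amino acid genes, Atf4, a stress response regulator, was at 732 ± 154 CPM, the serine synthesis enzymes Psat1 and Phgdh at 496 ± 31.8 CPM and 368 ± 46.1 CPM, and Slc7a5, a transporter of large neutral amino acids, at 358 ± 46.7 CPM. Mthfd2, a mitochondrial enzyme of the folate cycle, was at 356 ± 60.6 CPM.

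Genes of cell division were expressed throughout. All 35 replication and all 27 mitosis genes examined were above 10 CPM, against 35.4% of all listed genes. Mcm6, a subunit of the replicative helicase, was at 608 ± 30.5 CPM and Pcna, the sliding clamp, at 329.9 ± 67.9 CPM. Top2a, the topoisomerase of dividing cells, had 1227, 1165, 1206, 1157 and 1166 CPM in NT 1 to NT 5, within 2.59% of variation. Mki67, the proliferation antigen, had 854, 536, 616, 548 and 587 CPM in NT 1 to NT 5, highest in NT 1, with a CV of 20.7% and of 5.88% in NT 3 to NT 5. Rrm2, the regulated subunit of ribonucleotide reductase, had 85.9, 169, 120.1, 98.5 and 206 CPM in NT 1 to NT 5, highest in NT 5, whereas raw counts gave 137, 204, 86.2, 67.04 and 177 CPM, highest in NT 2. Of the replication genes 26 were highest in NT 5 and 28 lowest in NT 1, and of the mitosis genes 17 and 16, against 28.1% and 25.9% of all genes. Without the correction, 26 of 35 replication genes were higher in NT 5 than in both NT 3 and NT 4, and 33 were lower in NT 1 than in NT 2, against 38.2% and 57.3% of all genes. For the 27 mitosis genes these counts were 20 and 21. Over all 5 libraries of the raw table, however, only 7 replication genes were highest in NT 5, and the share of all genes there was not computed. The raw sums for replication were 5201, 6618, 4474, 4103 and 5212 CPM in NT 1 to NT 5. For mitosis they were 5166, 5184, 4285, 3989 and 4695 CPM. NT 1 was lowest for neither sum and NT 2 was highest for both.

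Histone genes, looked at after their values were seen, were also mostly lowest in NT 1 and highest in NT 5. Replication-dependent histone mRNAs end in a stem-loop in place of a poly(A) tail and are made in S phase. The 55 genes named Hist at 10 CPM or more summed to 13793, 21576, 19784, 17573 and 25666 CPM in NT 1 to NT 5. NT 1 was lowest for 53 of them and NT 5 highest for 47, against 25.9% and 28.1% of all genes. In raw counts all 55 were lower in NT 1 than in NT 2, against 57.3% of all genes. There 48 were higher in NT 5 than in NT 3 and NT 4, against 38.2%. Copies of these genes are near-identical and can share reads.

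Ribosomal protein genes took 9.67% of the scaled counts and translation factors another 3.93%. The ribosomal protein genes summed to 88856, 100568, 110265, 106011 and 78024 CPM in NT 1 to NT 5. NT 5 was lowest for 74 of the 76 members at 10 CPM or more, against 43.0% of all genes. In the raw counts of NT 3 to NT 5 the order was the same, with 75 of 76 below both other libraries in NT 5, against 49.1% of all genes. Over all 5 raw libraries only 4 were lowest in NT 5, and the raw sums were 64791 and 77615 CPM in NT 1 and NT 2 and 98391 in NT 5. The share of all genes lowest in NT 5 over the 5 raw libraries was not computed. Rpl4 was at 4404 ± 428 CPM, Rplp0 at 3748 ± 574 CPM, Rps2 at 3701 ± 417 CPM and Rps3 at 3423 ± 534 CPM. Eef1a1 had 15421, 18294, 19535, 18978 and 13388 CPM in NT 1 to NT 5, lowest in NT 5, whereas NT 1 was lowest in raw counts. Eef2, the translocation factor, had 8130.2, 9041, 9219, 9045 and 6693 CPM in NT 1 to NT 5. Of the 24 members of the translation factor list, 11 were lowest in NT 5 and 8 highest there, against 43.0% and 28.1% of all genes. Pabpc1, the poly(A)-binding protein, had 1328, 548, 879.8, 787 and 358 CPM in NT 1 to NT 5, NT 1 being highest. Rpl26, Rpl30 and Rps27, whose values were seen before they were chosen, were at 0.296, 4.75 and 6.63 CPM, under that minimum. Ribosomes hold these proteins in about equal numbers, and how the authors counted reads shared with their many pseudogenes is not stated in the labels.

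The mRNAs of ribosomal proteins and of several translation factors are known to start with a run of pyrimidines, through which growth signals control their translation. The pattern of the ribosomal protein genes was seen before their starts were searched for such runs. The bases around the annotated start are shown for the leading 5 genes of protein synthesis by CPM, whether or not they hold a run, and for Gzmb as a gene outside the group. They go from 20 bases before the start to 20 after it, as RefSeq gives them for the build GRCm38.p6 (the reads were aligned to mm9, per the submitters' processing notes). The windows are chr9:78481705-78481744 (minus strand) for Eef1a1, chr10:81176611-81176650 (plus strand) for Eef2, chr5:115559447-115559486 (plus strand) for Rplp0, chr9:64173367-64173406 (plus strand) for Rpl4, chr11:48800340-48800379 (plus strand) for Rack1 and chr14:56262315-56262354 (minus strand) for Gzmb. Capitals mark the longest run of C and T within 10 bases of the start on either side, and Rack1 is listed in the tables as Gnb2l1.
Eef1a1: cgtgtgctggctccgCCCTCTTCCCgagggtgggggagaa
Eef2: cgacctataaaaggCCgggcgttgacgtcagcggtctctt
Rplp0: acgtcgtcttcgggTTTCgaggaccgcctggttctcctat
Rpl4: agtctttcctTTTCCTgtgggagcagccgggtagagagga
Rack1: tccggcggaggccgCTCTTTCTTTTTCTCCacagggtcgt
Gzmb: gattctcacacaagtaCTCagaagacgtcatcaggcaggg
A run of at least 6 letters, each C or T, lay in this window of the gene's strand for 27 of 56 ribosomal protein genes with a RefSeq entry (48.2%), against 19.5% of 6924 genes at 10 CPM or more and 20.1% of all 27025 starts. On the opposite strand, read as a run of A and G, the shares were 8.93%, 19.7% and 21.5%. Of the printed genes Eef2, Rplp0 and Gzmb held none in the window, and among 17 translation factors only 2 did (11.8%). The printed bases of Eef2 and Rplp0 hold such a run further after the start, past the window. Outside protein synthesis, 9 of 23 cytoskeleton genes held it too (39.1%), with 17.4% on the opposite strand. The run marked for Rpl4 lies wholly before the annotated start, so a run in this window need not be part of the mRNA. Annotated starts can lie some bases from the true start, and a match is a description of these letters only.

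Among the remaining groups, Tmsb4x, which binds actin monomers, was at 2563 ± 288 CPM and Tubb5, a beta tubulin, at 2455 ± 265 CPM. H2-K1 and B2m, the heavy chain and the light chain of MHC class I, were at 1707 ± 173 CPM and 1686 ± 182 CPM, and the peptide transporter Tap1 at 552 ± 80.6 CPM. The median CV of the MHC class I list was 10.2%. Interferon-stimulated genes were all above 1 CPM (34 of 34), against 45.9% of all listed genes. The GTPase genes Gbp2 and Igtp were at 335 ± 36.1 CPM and 309.5 ± 42.4 CPM, and Isg15 at 51.3 ± 8.80 CPM. Socs1, a feedback inhibitor of cytokine signalling, had 26.2, 50.02, 43.8, 46.7 and 86.5 CPM in NT 1 to NT 5, highest in NT 5, whereas NT 2 was highest in raw counts. Mcl1, a survival factor, was at 323 ± 26.3 CPM. Cdkn1a, the cell cycle inhibitor p21, had 184, 86.97, 77.1, 66.3 and 128 CPM in NT 1 to NT 5. Hsp90ab1, a chaperone, was at 3328 ± 323 CPM and Hspa8 at 2427 ± 344 CPM, whereas the stress-induced Hspa1a and Hspa1b were at 2.98 and 5.95 CPM, with Hspa1a at 5.24 CPM over raw counts.

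**Figure D3:**
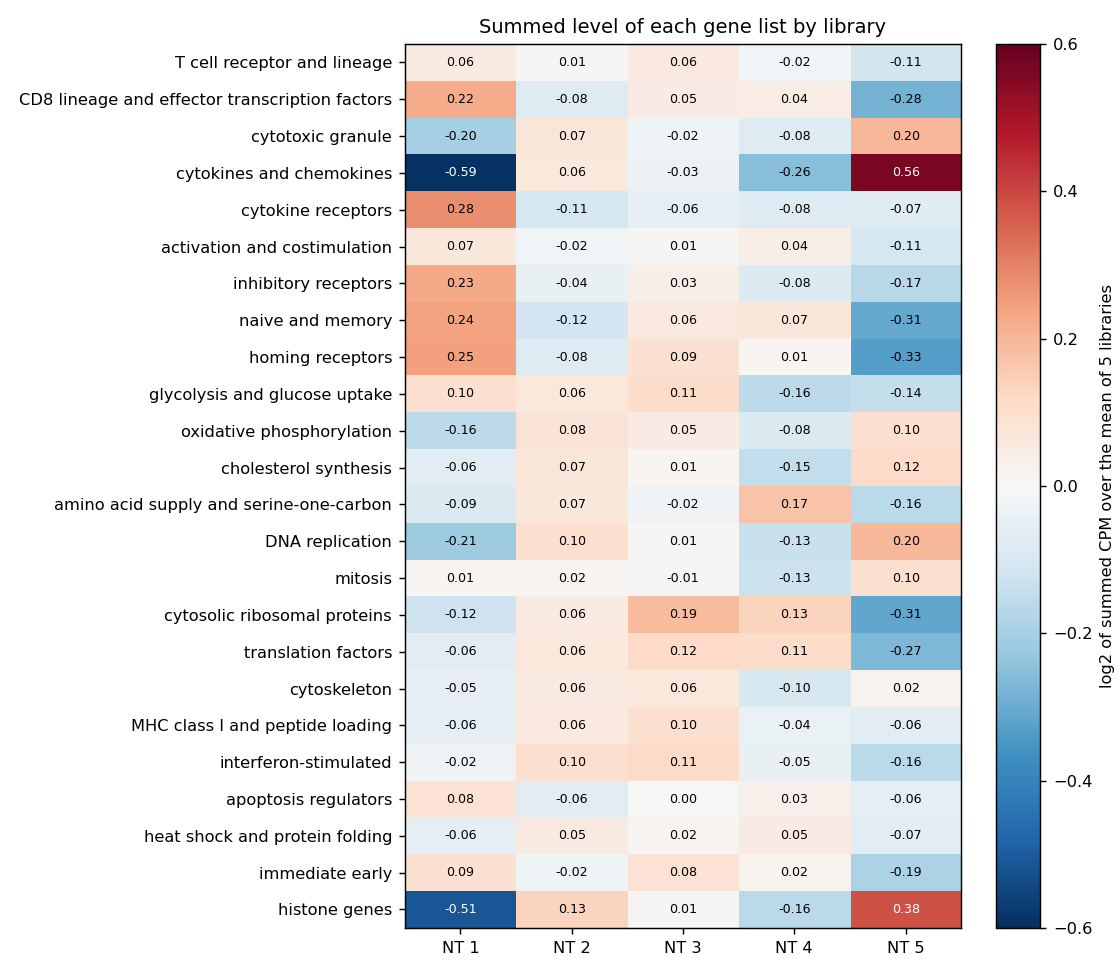
Summed CPM of each gene list in each NT library, as the log2 ratio to the mean of the 5 libraries (colour and printed value). NT 5 is lowest for the sums of ribosomal proteins and translation factors (the latter holding Eef1a1 and Eef2). It is lowest, among other lists, also for homing receptors, naive and memory genes, CD8 lineage and effector transcription factors and inhibitory receptors. Lists highest in NT 5 include cytokines, the cytotoxic granule, DNA replication, mitosis and histone genes. NT 1 is lowest for histone genes, cytokines, DNA replication, the cytotoxic granule and oxidative phosphorylation.

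Over all 8644 genes at 10 CPM or more the median CV was 12.5%, with quartiles at 8.65% and 17.5%. Counting alone gives a median CV of 3.19%, and 8445 genes lay above their own counting CV. In the raw counts of the same libraries the median CV was 18.7%, and 13.6% in NT 3 to NT 5 after correction. Of all genes 2926 had a CV under 10% and 477 one of at least 30%.

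The 10 genes of highest CV were Ubald2 (78.2%), Zfp395 (77.2%), Tnfrsf8 (75.1%), Polr2a (69.4%), Atf7 (67.9%), Zmiz1 (67.6%), Ncoa6 (67.3%), Hivep3 (67.2%), Irf2 (66.9%) and Rere (64.95%). Ubald2 had 5.49, 11.3, 53.2, 48.5 and 20.6 CPM in NT 1 to NT 5, the lowest values lying in NT 1 and NT 2, the libraries whose names differ between the tables, and a mean of 27.8 CPM against 41.2 in NT 3 to NT 5. Polr2a, the large subunit of RNA polymerase II, had 143, 35.03, 56.9, 23.3 and 88.2 CPM in NT 1 to NT 5. Zmiz1, a transcriptional coregulator, had 86.04, 21.6, 19.96, 29.5 and 45.5 CPM in NT 1 to NT 5, with a CV of 40.8% in NT 3 to NT 5. NT 1 was highest for each of the 10 except Ubald2, highest in NT 3, and Tnfrsf8, highest in NT 5. Without NT 1 the number of genes with a CV of at least 30% was 241 in place of 477. The most even genes were Prdm4, at 70.8, 70.9, 70.6, 71.4 and 69.6 CPM in NT 1 to NT 5, Pa2g4 (322 ± 3.01 CPM), a factor of ribosome production and growth, the channel Trpv2 (77.01 ± 0.768 CPM), the selenocysteine elongation factor Eefsec (39.3 ± 0.420 CPM) and Gsdmd (38.4 ± 0.459 CPM), whose product forms pores in pyroptosis. All 5 lay under the CV that counting alone gives, 2.66% against 0.912% for Prdm4. In raw counts their CVs were 13.3%, 8.32%, 4.85%, 19.1% and 2.25%, that of Eefsec above the median of all genes.

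**Figure D4:**
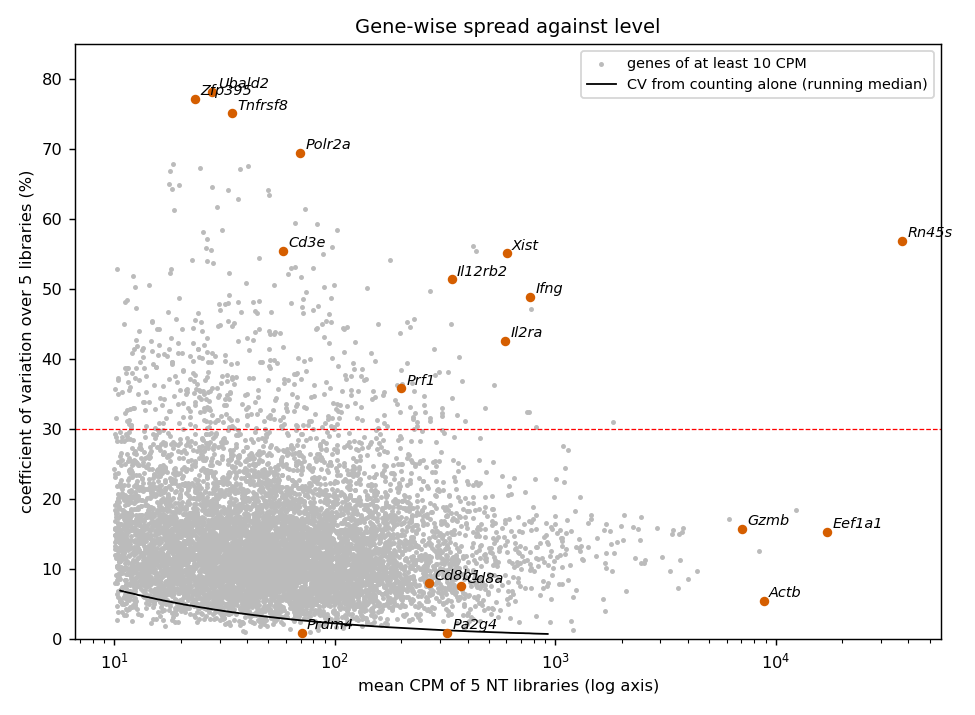
CV over the 5 NT libraries (%) against mean CPM (log axis) for each gene at 10 CPM or more (grey), with some of the genes named in the text in orange, the CV from counting alone as a black running median and a dashed line at 30%. Nearly all genes lie above the counting line, Cd8a and Cd8b1 lie low, and Ubald2, Zfp395 and Tnfrsf8 lie at the top.

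Of the 477 genes with a CV of at least 30%, 366 were highest in NT 1 and 97 in NT 5, with 259 lowest in NT 5 and 92 lowest in NT 1. Over all genes 32.8% were highest in NT 1, 28.1% highest in NT 5, 43.0% lowest in NT 5 and 25.9% lowest in NT 1. Those highest in NT 1 had a median transcript length of 5944 bases and those highest in NT 5 one of 1875, against 3150.5 over all genes with a length. A CV of at least 30% was seen for 6.94% of genes with transcripts under 1 kb. The share was 1.92% at 1 to 2 kb and 3.29% at 2 to 4 kb. It was 7.24% at 4 to 8 kb and 22.6% at 8 kb and over. In NT 1 the median deviation from the gene mean went from -0.18 (log2) under 1 kb to 0.34 at 8 kb and over, and in NT 5 from 0.10 to -0.21. In raw counts the corresponding values were -0.51 and 0.33 for NT 1, and 0.26 and -0.13 for NT 5. The part of transcript length, of the ribosomal RNA share of NT 1 and of the batch correction in the spread of the named genes was not tested.

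**Figure D5:**
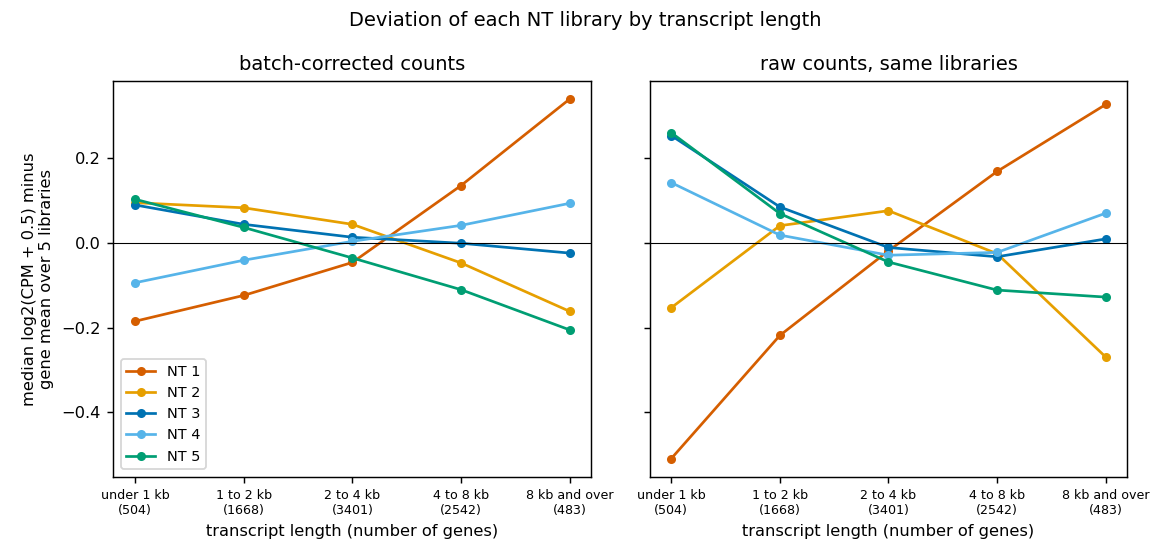
Median over genes of the log2 deviation of each NT library from the gene mean of the 5 libraries, by transcript length class (number of genes below each), in batch-corrected counts (left) and raw counts (right). NT 1 rises with length and NT 5 falls in both tables.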

How the data were processed

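Per the labels, a SMARTer kit for mRNA turned total RNA into libraries. The build mm9 and the tools STAR, featureCounts and edgeR come from the submitters' processing notes, with no versions, strand setting or batch method. Overlapping, antisense and near-identical genes are therefore uncertain. The authors deposited raw counts and, after their batch correction, estimated counts for the same 24391 genes, all of them whole numbers, with 0 rows lacking a gene name. The table of the authors' own comparison was not used.

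From the corrected counts of the 5 NT libraries, CPM were computed with TMM factors in edgeR 4.0.16 (R 4.3.3). Spread is the CV over libraries (Python 3.11.15), errors are SDs, and no test between groups was made, since 1 group was described. The CV calculation was tested on simulated data. Transcript lengths are exon unions of GENCODE M21 transcripts with a RefSeq accession, for 23724 genes. This definition replaced a union over all transcripts after that one gave implausibly long values for short genes. No coordinates were moved between builds. Genes were named by rule: the 20 of highest CPM, the 10 of highest and 5 of lowest CV, the markers, up to 4 of highest CPM and 2 of highest CV in each of 32 lists, and other members to complete a family or role. Some genes that the rule names are not reported here. Genes, lists and the 5 libraries were chosen with earlier results of these data known. The CV levels of 30% and 10%, the histone genes and the search of gene starts were chosen after the values were seen. All gene sets searched at their starts are reported. Alternatives were other scalings, raw counts, other expression minimums and measures of spread, libraries left out, and, added after seeing the data, comparisons within NT 1 and NT 2 and within NT 3 to NT 5, the order of libraries in raw counts and a split by length. The labels name no batches, and these 2 sets rest on how far apart the raw libraries lie. By that measure NT 2 lay about as far from NT 1 (0.46) as from NT 5 (0.48).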

Additional observations from a re-analysis of the deposited data

Results flagged for a closer look

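Of the 203 genes named here, 13 had 1 library set apart from the other 4, in that its gap to the nearest library took more than 0.71 of the range of the 5. For normally distributed values, chance alone gives such a gap in about 1 in 20 groups of 5. The 203 include genes without a count in any library, such as Lyz2, for which no library can be set apart. For Csf1r, Pax5, Gzmg and Ms4a1 only 1 library had a count, so the rule had to set it apart. Some of the 203 were also chosen for a high or low CV. The share of 13 in 203 is therefore not directly comparable with that rate. NT 5 was the library set apart for 8 of the 13, NT 4 for 2, and NT 1, NT 2 and NT 3 for 1 each. The rule was applied to the named genes only, and the share of all genes with NT 5 set apart was not computed.

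Among genes above 1 CPM, NT 5 was high for the cytokines Il24, at 20.8 CPM, and Il10, at 5.35 CPM. It was low for Cd3d, a chain of the T cell receptor complex, at 219.9 CPM, and for the chaperone Hsp90ab1, at 2753 CPM. NT 1 was high for the proliferation antigen Mki67, at 854 CPM. NT 3 was high for the transcription factor Eomes, at 50.4 CPM, and NT 4 for Hif1a, at 998 CPM. In raw counts of the same libraries NT 3 was not the high library for Eomes, at 37.1 CPM against 48.4 in NT 1 and 51.0 in NT 2. Raw Cd3d was lower in NT 1 (193 CPM) and NT 2 (197 CPM) than in NT 5 (298 CPM). Raw Hif1a was highest in NT 4 too, with 561, 615, 958, 1101 and 924 CPM in NT 1 to NT 5, and lowest in NT 1 and NT 2. Raw Mki67 was highest in NT 1 too, with 850, 469, 621, 593 and 589 CPM. The rule was not applied to raw counts.

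The others were genes with a mean under 1 CPM, where a few counts set a library apart. NT 5 was high for the granzyme genes Gzmd (0.614 CPM), Gzme (0.307 CPM) and Gzmg (0.132 CPM) and for the B cell gene Ms4a1 (0.132 CPM). NT 4 was high for Csf1r at 0.0531 CPM and NT 2 for Pax5 at 0.0663 CPM.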

How the results depend on the processing

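No paired analysis was possible because only 1 group was described and no test between groups was made. Under RLE scaling, plain library totals and TMM factors over all 9 libraries, the means of all 203 named genes moved by less than 1 SD. In raw counts of the same libraries 8 moved by over 1.5 times, and in the raw columns named NT 23 did, among them Cd74 (63.1 CPM), Rn45s (22955 CPM) and Polr2a (43.3 CPM). NT 1 and NT 2 alone moved 12, among them Ubald2 (8.25 CPM), and NT 3 to NT 5 alone moved 7, each with a mean under 1 CPM.

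The raw counts of the same libraries changed most results of spread and order. The median CV was 18.8% (over genes at 10 CPM in raw counts), 1695 genes had a CV of at least 30% (761 of them highest in NT 1) and 1153 one under 10%. Ribosomal protein genes lowest in NT 5 numbered 4, and replication and oxidative phosphorylation genes highest in NT 5 numbered 7 and 17. In the raw columns named NT the corresponding counts were 1307 and 1683 genes by CV, and 9, 2 and 17 genes by library. For these counts by library the shares of all genes were not computed. Of the 10 genes of highest CV, 5 were shared with the raw counts of the same libraries, 1 with the raw columns named NT, 5 with NT 3 to NT 5, 6 with the SD of log2 values and 4 to 8 when 1 library was left out. A CV of at least 30% was found for 241 to 684 genes without 1 library (241 without NT 1), 933 in NT 1 and NT 2 alone, 1067 with a minimum of 1 CPM and 100 with a minimum of 100 CPM, where 819 genes had a CV under 10%. Of the 117 genes in the lists for other cell types, 95 had at least 1 count in any library. The share of all listed genes with such a count was not computed, but single libraries had a count for 14039 to 17020 of the 24391. The cause of these changes was not tested. At these depths, means under about 0.2 CPM rest on a few counts, and with 5 libraries a CV is itself imprecise.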
